A study of Homo sapiens with 30 samples.

Results

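The start regions of 10 transcription factor genes of blood progenitors and other blood lineages, GATA2, RUNX1, FLI1, MEIS1, SPI1, CEBPA, PAX5, EBF1, GATA3 and IKZF1, were examined in CUT&Tag peak lists of K562, a human cell line of chronic myeloid leukaemia. RUNX1 has 2 starts, 160.6 kb apart, so the genes gave 11 windows, each reaching 5 kb to either side of a start on the hg19 build. Of the 745005 peaks in all 36 deposited lists, 255 overlapped one of these windows. The windows were to be sorted by whether they carried H3K27ac, H3K27me3, both marks or neither.

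CUT&Tag directs a transposase to an antibody bound on chromatin, so that reads accumulate at the mark. The study compared antibodies to H3K27ac and an antibody to H3K27me3 across dilutions, DNA extraction methods, numbers of PCR cycles and treatment with trichostatin A (TSA), an inhibitor of histone deacetylases. The 30 libraries comprised 4 of H3K27ac with TSA, 21 of H3K27ac without TSA and 5 of H3K27me3 without TSA. The TSA libraries used the antibodies ab177178 and ab4729 at 1/100 and Diagenode C15410196 at 1/100 and 1/50, all with SDS extraction and 15 cycles. Of the untreated H3K27ac libraries, 16 crossed ab177178, ab4729, Active Motif 39133 (1/100) and Diagenode C15410196 (1/50) with column or SDS extraction and 11 or 13 cycles, and 5 had SDS extraction and 15 cycles, with Diagenode at both dilutions. The H3K27me3 libraries used CST9733 at 1/100 with column extraction at 11 and 13 cycles and SDS extraction at 11, 13 and 15 cycles. Each condition had 1 library, and the labels do not say whether libraries came from separate cultures, so every p-value here measures only the spread among these libraries, which may be technical. K562 is a single aneuploid tumour line and stands for no normal progenitor.

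H3K27ac marks active promoters and enhancers, whereas H3K27me3 is placed by Polycomb repressive complex 2 at silent developmental genes, often over CpG-rich promoters. Both modify the same lysine, so a single histone tail cannot carry them together. GATA2, RUNX1, FLI1 and MEIS1 act in blood stem and progenitor cells, SPI1 and CEBPA direct myeloid fates, and PAX5, EBF1, GATA3 and IKZF1 act in lymphoid cells.

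Promoter sequences are shown for members of each class described below, because CpG content bears on where Polycomb marks can lie. RefSeq promoter entries on GRCh38.p14, 250 bases before to 50 after a start, matched 8 of the 10 genes with 16 entries. They were not placed on hg19, so no peak is read against them. CpG dinucleotides are in capitals, and each sequence runs 5′ to 3′ on the gene's strand. GATA2 is represented by both of its entries, chr3:128493152-128493451 and chr3:128488481-128488780 on the minus strand, the second 4.67 kb downstream of the first. CEBPA is at chr19:33302485-33302784 (minus), PAX5 at chr9:37034219-37034518 (minus), RUNX1 at chr21:34888650-34888949 (minus) and MEIS1 at chr2:66434875-66435174 (plus).
GATA2 first entry: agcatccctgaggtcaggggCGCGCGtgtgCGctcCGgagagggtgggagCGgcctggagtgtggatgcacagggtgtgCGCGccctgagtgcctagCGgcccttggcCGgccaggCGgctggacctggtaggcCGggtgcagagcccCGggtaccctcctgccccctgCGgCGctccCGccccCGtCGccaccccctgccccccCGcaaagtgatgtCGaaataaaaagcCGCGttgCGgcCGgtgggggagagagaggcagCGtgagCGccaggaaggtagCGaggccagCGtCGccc
GATA2 second entry: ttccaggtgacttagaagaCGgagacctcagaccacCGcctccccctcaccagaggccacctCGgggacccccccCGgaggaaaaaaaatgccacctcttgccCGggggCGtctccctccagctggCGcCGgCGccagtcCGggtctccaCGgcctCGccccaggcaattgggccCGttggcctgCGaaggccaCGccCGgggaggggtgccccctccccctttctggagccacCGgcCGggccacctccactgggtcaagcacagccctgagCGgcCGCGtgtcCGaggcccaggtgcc
CEBPA: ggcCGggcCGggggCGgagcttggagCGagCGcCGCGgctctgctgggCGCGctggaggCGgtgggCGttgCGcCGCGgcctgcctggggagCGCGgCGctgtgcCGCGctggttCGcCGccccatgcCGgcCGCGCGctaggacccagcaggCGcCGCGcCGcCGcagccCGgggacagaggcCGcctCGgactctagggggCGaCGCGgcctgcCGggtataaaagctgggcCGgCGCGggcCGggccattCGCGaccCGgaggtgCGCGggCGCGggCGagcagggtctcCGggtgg
PAX5: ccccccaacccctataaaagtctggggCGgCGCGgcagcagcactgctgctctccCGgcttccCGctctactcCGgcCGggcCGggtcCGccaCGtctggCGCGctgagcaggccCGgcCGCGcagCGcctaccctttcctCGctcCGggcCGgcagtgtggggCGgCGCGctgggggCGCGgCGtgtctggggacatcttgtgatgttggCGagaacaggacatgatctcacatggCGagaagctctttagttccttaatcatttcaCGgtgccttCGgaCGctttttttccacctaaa
RUNX1: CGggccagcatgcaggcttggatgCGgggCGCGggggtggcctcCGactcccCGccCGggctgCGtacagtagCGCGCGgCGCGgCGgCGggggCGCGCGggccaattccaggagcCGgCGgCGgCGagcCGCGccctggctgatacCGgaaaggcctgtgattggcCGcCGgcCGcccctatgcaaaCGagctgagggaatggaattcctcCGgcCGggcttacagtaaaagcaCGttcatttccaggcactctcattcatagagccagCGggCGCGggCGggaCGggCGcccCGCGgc
MEIS1: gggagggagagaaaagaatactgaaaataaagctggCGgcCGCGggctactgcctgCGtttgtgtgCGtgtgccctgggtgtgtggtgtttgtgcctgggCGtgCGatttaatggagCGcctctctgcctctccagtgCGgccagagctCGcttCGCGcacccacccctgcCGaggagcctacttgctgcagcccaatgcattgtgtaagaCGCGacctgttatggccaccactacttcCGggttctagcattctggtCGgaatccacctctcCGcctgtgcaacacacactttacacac

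The CEBPA entry held 50 CpGs, more than 98.7% of the 35116 entries in the table, whose median was 14. RUNX1 held 40, PAX5 30, GATA2 29 and 22, and MEIS1 18. Of the 16 member entries, 12 lay above the median of all entries, from genes of each of the 3 classes found. The classes belong to the start windows of these genes, and no entry was itself shown to carry a mark. The GATA letters GATAA, searched on both strands, were in 2 member entries and in 22.7% of all entries. The ETS letters CCGGAA were in 4 member entries and 17.2% of all, and the RUNX letters TGTGGT in 3 and 13.1%. None of the 3 motifs contains another, although matches can overlap at their ends.

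A window was said to carry a mark where at least 50% of the untreated SEACR lists of that mark had a peak overlapping it by at least 1 bp. By this rule 3 windows carried H3K27ac (GATA2, SPI1 and IKZF1), 5 carried H3K27me3 (FLI1, CEBPA, PAX5, EBF1 and GATA3), 0 carried both and 3 carried neither (both RUNX1 starts and MEIS1). Over 303486 tiles of the same length across chromosomes 1 to 22 and X, 1.64% carried H3K27ac, 11.6% H3K27me3, 0.106% both and 86.7% neither. Tiles are mostly not promoters, so these shares describe the genome and not other genes. SPI1 and EBF1 carried neither mark when 80% of lists were required, as they did with the stronger 50% of peaks in each list.

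**Figure D1:**
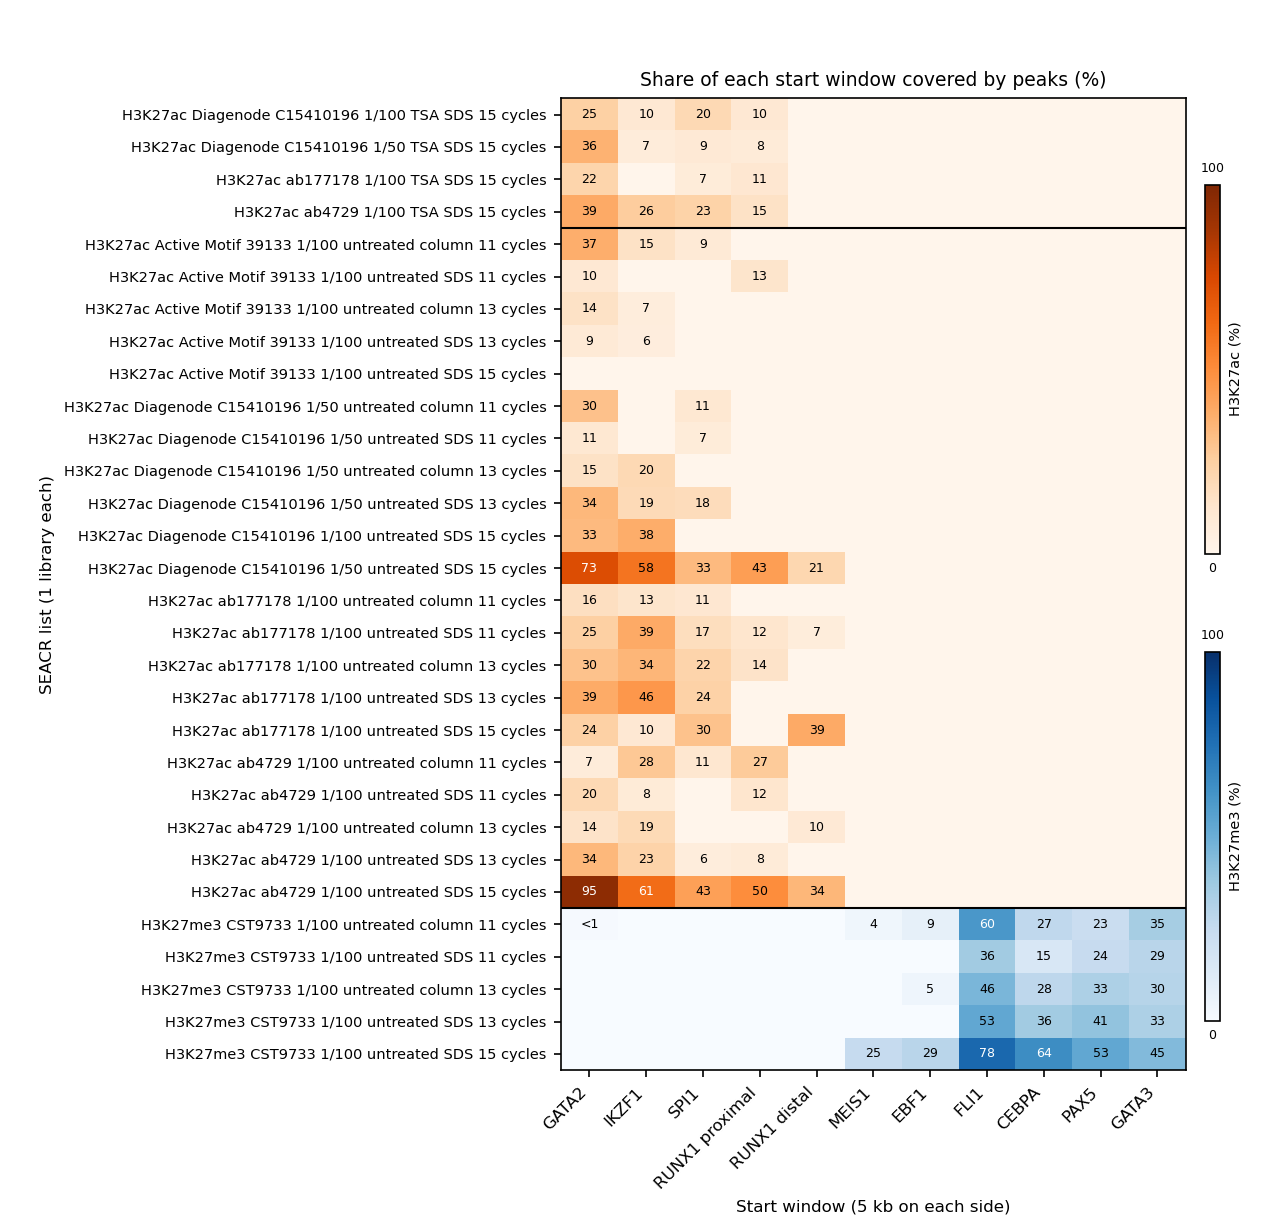
Share of each start window (columns, 5 kb to either side of the start) covered by peaks, in percent, for each SEACR list (rows, 1 library each), with TSA-treated H3K27ac lists at the top, untreated H3K27ac lists below and H3K27me3 lists at the bottom; empty cells are 0. The H3K27ac values fall in the first 5 columns and the H3K27me3 values in the last 6, apart from 1.00% of H3K27me3 at GATA2.

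Among the progenitor genes, GATA2, a zinc-finger factor needed to maintain blood stem cells, carried H3K27ac most often. Its start lies on chromosome 3 at 128212030, minus strand. Peaks were present in 20 of 21 untreated H3K27ac lists and 1 of 5 H3K27me3 lists. H3K27ac covered from 0% to 95.0% of the window, with a median of 23.8%. The H3K27me3 lists covered 1.00% with column extraction at 11 cycles and 0% in the other 4. The high end of H3K27ac was the ab4729 list at 15 cycles, followed by Diagenode at 1/50 and 15 cycles with 73.0%, and the list at 0% was Active Motif at 15 cycles, which held the fewest peaks of all SEACR lists, 3024. In the ab4729 list at 15 cycles 1 peak of 16869 bp, from 128199663 to 128216531, spanned most of the window. The strongest peak of the window ranked by total signal within its list at a median percentile of 88.2.

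RUNX1, the partner of core-binding factor beta needed for the emergence of definitive blood stem cells, carried neither mark by the rule at either of its starts. The proximal start, on chromosome 21 at 36260987, minus strand, had H3K27ac peaks in 8 of 21 untreated lists, with a maximum coverage of 49.8%. At the distal start, 36421595, 5 of 21 lists had one, with a maximum of 38.7%. The H3K27me3 lists had no peak at either start, 0 of 5. The ab4729 antibody gave 4 of the 8 lists at the proximal start, against 2 for ab177178, 1 for Active Motif and 1 for Diagenode. In the 150607 bp between the 2 windows, 15 of 21 H3K27ac lists and 1 of 5 H3K27me3 lists had a peak. Within 50 kb, the 1-kb bins that most lists shared lay 21.5 and 22.5 kb downstream of the distal start, in 12 of 21 H3K27ac lists at 21.5 kb.

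FLI1, an ETS factor of megakaryocytes and endothelium, carried H3K27me3. Its start lies on chromosome 11 at 128563811, plus strand. None of 21 untreated H3K27ac lists had a peak, and the nearest H3K27ac peak lay a median of 1201 kb away. H3K27me3 covered 60.2% and 46.4% of the window with column extraction at 11 and 13 cycles, and 36.3%, 52.8% and 78.1% with SDS extraction at 11, 13 and 15 cycles. All 5 lists were thus high here, and the strongest peak ranked at a median percentile of 94.6 within its list. At 15 cycles 1 peak of 12130 bp, from 128554496 to 128566625, ran over the start, and the start base was covered in 3 of 5 lists.

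MEIS1, a homeodomain cofactor of HOX proteins in stem cells, had little of either mark. Its start lies on chromosome 2 at 66662532, plus strand. H3K27ac was absent from the window in 21 of 21 untreated lists, the nearest peak lying a median of 617 kb away. H3K27me3 covered 3.87% with column extraction at 11 cycles, 0% at 13, and 0%, 0% and 24.7% with SDS extraction at 11, 13 and 15 cycles. A peak was therefore present in 2 of 5 lists, which falls short of the rule. With windows of 10 kb to either side, and with the lists at 15 cycles alone, MEIS1 carried H3K27me3. In the H3K27me3 library at 15 cycles MACS2 covered 25.8% of the window. A further H3K27me3 signal lay upstream, where the 1-kb bins at −9.5 and −8.5 kb from the start were covered in at least 50% of lists.

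Of the myeloid genes, SPI1, which encodes the ETS factor PU.1 of myeloid and B cells, carried H3K27ac, and CEBPA, the bZIP factor of granulocytes, carried H3K27me3. The SPI1 start lies on chromosome 11 at 47400127, minus strand. Peaks of H3K27ac were in 13 of 21 untreated lists and covered a median of 9.36% and at most 42.8% of the window, against 0 of 5 H3K27me3 lists. These peaks sat on the start: its base was covered in 11 of the 13. ab177178 had one in 5 of 5 lists, ab4729 in 3 of 5, Diagenode in 4 of 6 and Active Motif in 1 of 5. The 1-kb bin centred −29.5 kb from the SPI1 start, upstream of it, held an H3K27ac peak in 15 of 21 lists. The start window held one in 13. With no annotation used, the upstream bin was not assigned to SPI1 or to any other gene.

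The CEBPA start lies on chromosome 19 at 33793430, minus strand. No untreated H3K27ac list had a peak, and the nearest lay a median of 330 kb away. H3K27me3 covered 26.6% and 27.7% with column extraction at 11 and 13 cycles, and 15.3%, 36.2% and 64.1% with SDS extraction at 11, 13 and 15 cycles. The mark was present in 5 of 5 SEACR lists, yet the start base was covered in 0 of them. A second caller, MACS2, placed a peak of 415 bp over the start, from 33793394 to 33793808, in the library at 15 cycles. The 15 bins of 100 bp that all 5 lists covered lay between 3050 and 4950 bp downstream.

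Of the B-cell genes, PAX5, which commits progenitors to the B lineage, had H3K27me3 in more lists than EBF1, which acts with it in early B cells. The PAX5 start lies on chromosome 9 at 37034476 and the EBF1 start on chromosome 5 at 158526788, both on the minus strand. At PAX5, H3K27me3 covered 22.7% and 32.5% with column extraction at 11 and 13 cycles, and 24.3%, 40.5% and 52.9% with SDS extraction at 11, 13 and 15 cycles. EBF1 had 8.56% and 4.58% with column extraction at 11 and 13 cycles, and 0%, 0% and 29.2% with SDS extraction at 11, 13 and 15 cycles. PAX5 was thus marked in every list and EBF1 in 3 of 5, at peaks of a median percentile of 79.2 at PAX5 and 55.0 at EBF1. With column extraction at 11 and 13 cycles, EBF1 had 1 peak per list, toward the upstream edge of the window, at percentiles 58.7 and 5.81. With an overlap of at least 500 bp required, EBF1 carried neither mark. Neither window had an H3K27ac peak in any untreated list, and the nearest lay a median of 85.8 kb from PAX5 and 108 kb from EBF1.

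GATA3, the zinc-finger factor of T cells, lies on chromosome 10 with its start at 8096667, plus strand. H3K27me3 covered 34.8% and 29.9% of the window with column extraction at 11 and 13 cycles, and 28.9%, 32.7% and 44.5% with SDS extraction at 11, 13 and 15 cycles, the narrowest spread of the members marked in all lists. Its strongest peak ranked at a median percentile of 94.4. As at CEBPA, 0 of 5 SEACR lists covered the start base, and peaks flanked it on either side. No untreated H3K27ac list had a peak in the window, and the nearest lay a median of 265 kb away. The closest in any of the 21 lists, 5.86 kb from the start, was in the ab177178 list at 15 cycles.

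IKZF1, which encodes the lymphoid zinc-finger protein Ikaros, was the 1 lymphoid gene that carried H3K27ac. Its start lies on chromosome 7 at 50344378, plus strand. Peaks were in 17 of 21 untreated H3K27ac lists, with coverage from 0% to 61.0% and a median of 18.8%, and in 0 of 5 H3K27me3 lists. ab177178 and ab4729 each had one in 5 of 5 lists, Diagenode in 4 of 6 and Active Motif in 3 of 5. The peaks lay more often away from this start than on it. Its base was covered in 8 lists, whereas the 100-bp bin at 4050 bp downstream was covered in 16. A second IKZF1 promoter entry lies 3.98 kb downstream of the first. The entries were not placed on hg19, and whether the peaks lie at the second was not tested. With windows of 2 kb to either side IKZF1 carried neither mark.

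**Figure D2:**
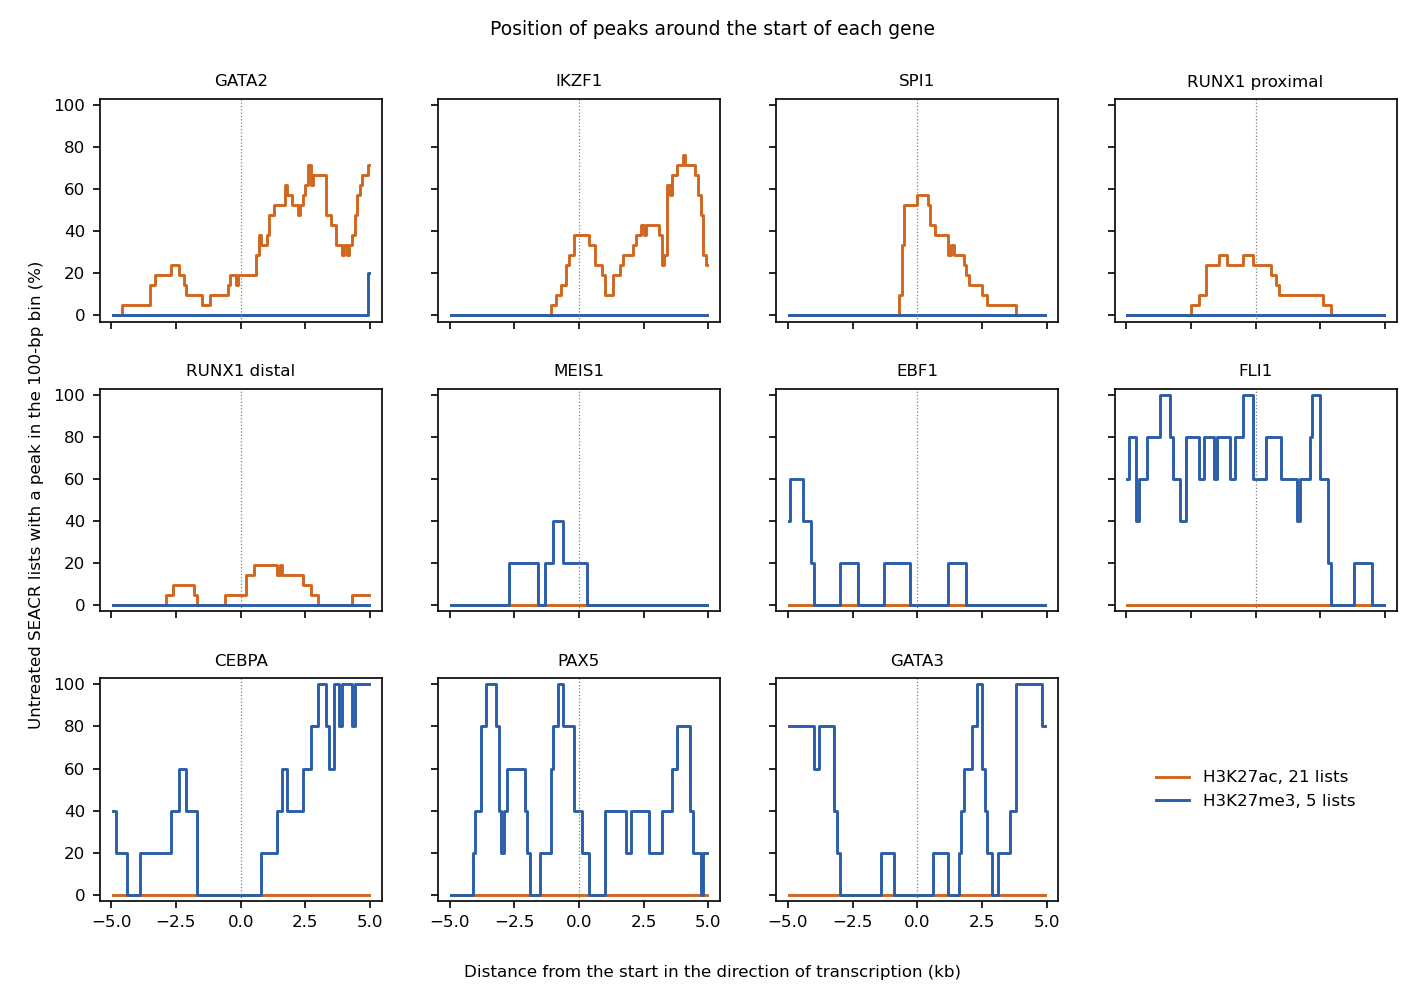
Share of untreated SEACR lists with a peak (vertical axis, percent of 21 H3K27ac lists in orange and of 5 H3K27me3 lists in blue) in each 100-bp bin by distance from the start in the direction of transcription (horizontal axis, kb). H3K27ac at SPI1 is highest at the start, at GATA2 and IKZF1 downstream of it, and H3K27me3 at CEBPA and GATA3 is at 0 over the start and reaches all 5 lists downstream.

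Peaks of the same mark lay at different distances from the start in different members. At GATA2 the bins with most H3K27ac lists, 15 of 21, lay at 2650 and 4950 bp downstream, and the start base was covered in 4 lists. The second GATA2 promoter entry, 4.67 kb downstream of the first, was not placed on hg19, so these bins were not set against it. At SPI1 the bins with most lists, 12 of 21, lay from 50 to 350 bp downstream. Among H3K27me3 windows, the bins covered in all 5 lists lay between −3650 and 2450 bp at FLI1 (11 bins), between −3550 and −650 bp at PAX5 (6 bins), and between 2350 and 4750 bp at GATA3 (12 bins), with negative positions upstream. The start base was covered in 3 of 5 SEACR lists at FLI1 and 2 at PAX5, against 0 at CEBPA, GATA3 and EBF1. MACS2 covered it at FLI1, PAX5 and CEBPA in the library at 15 cycles, and not at GATA3 or EBF1. With 5 lists of 1 antibody, these positions are descriptions and no test was made of them.

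**Figure D3:**
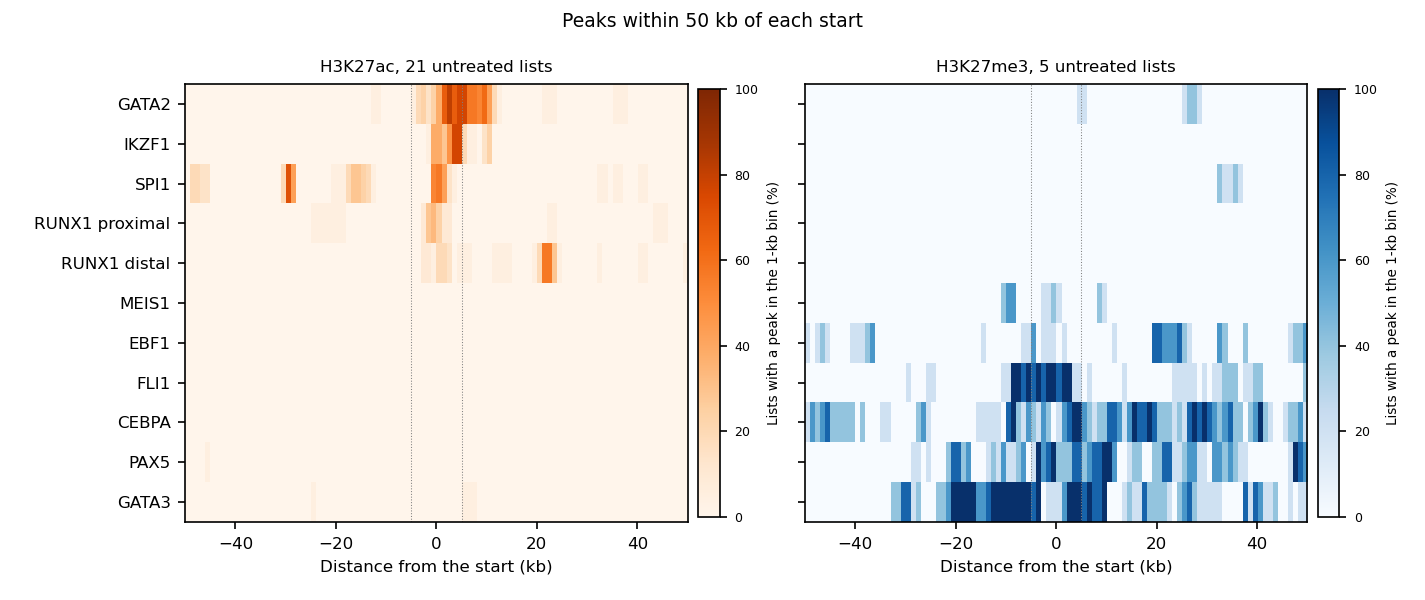
Share of lists with a peak (colour, percent) in 1-kb bins within 50 kb of each start (horizontal axis, kb in the direction of transcription; dotted lines mark 5 kb), for 21 untreated H3K27ac lists on the left and 5 H3K27me3 lists on the right. H3K27me3 at GATA3, CEBPA and PAX5 reaches, with gaps, far beyond the 5-kb window. H3K27ac bins covered in at least 50% of lists number at most 9 at a start. They lie at GATA2, IKZF1, SPI1 and the distal RUNX1 start.

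The extent of the marks beyond 5 kb also differed. Of the 100 bins of 1 kb around each start, those covered in at least 50% of H3K27ac lists numbered 9 at GATA2, all from 1.5 to 9.5 kb downstream, 3 at SPI1, 2 at the distal RUNX1 start, 2 at IKZF1 and 0 at the other 7 starts. For H3K27me3 they numbered 36 at GATA3, 33 at CEBPA, 27 at PAX5, 12 at FLI1, 10 at EBF1 and 2 at MEIS1, and 0 at the 5 starts of GATA2, SPI1, IKZF1 and RUNX1. FLI1 had the highest coverage inside its window, while its bins covered in at least 50% of lists lay from −8.5 to 2.5 kb. The 36 bins of GATA3 were spread, with gaps, between −30.5 and 40.5 kb. The share of 1-kb bins so covered over the genome was not counted.

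The marks were then compared on the covered share of each window over the 20 SEACR lists called after downsampling to a common read depth, 16 of H3K27ac and 4 of H3K27me3, with an exact two-sided permutation test over libraries. The Benjamini-Hochberg adjustment covered the 72945 tiles and start windows with a peak in any of these lists. H3K27ac was higher at 1 of the 11 starts and lower at 4, against 2.23% and 37.7% of all tested. The 4 of 11 starts called lower are close to that 37.7%, so their number does not set these genes apart. At GATA2, H3K27ac covered 21.6% ± 10.9 of the window (SD, n = 16) and H3K27me3 0.250% ± 0.500 (SD, n = 4), a difference of 21.3 percentage points (exact permutation p = 0.00124, adjusted p = 0.00473). This call was lost within 2 kb of the start, where the difference was 17.1 points (exact permutation test, adjusted p = 0.175), and with the stronger 50% of peaks in each list, where it was 14.7 points (adjusted p = 0.0514). H3K27me3 was the higher mark at FLI1 (H3K27ac 0%, H3K27me3 48.9% ± 10.1), GATA3 (0%, 31.6% ± 2.65), PAX5 (0%, 30.0% ± 8.24) and CEBPA (0%, 26.4% ± 8.58), each with an exact permutation p of 0.000206, the smallest that 20 libraries can give, and an adjusted p of 0.000815. Within 2 kb of the start, the call at GATA3 was lost (−5.05 points, exact permutation test, adjusted p = 0.0629). In the full windows of these 5 starts, no H3K27ac library overlapped an H3K27me3 library. The share of all 72945 tested without such overlap was not counted. Of them, 18468 reached the exact permutation p of 0.000206, so this p is not particular to these genes.

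**Figure D4:**
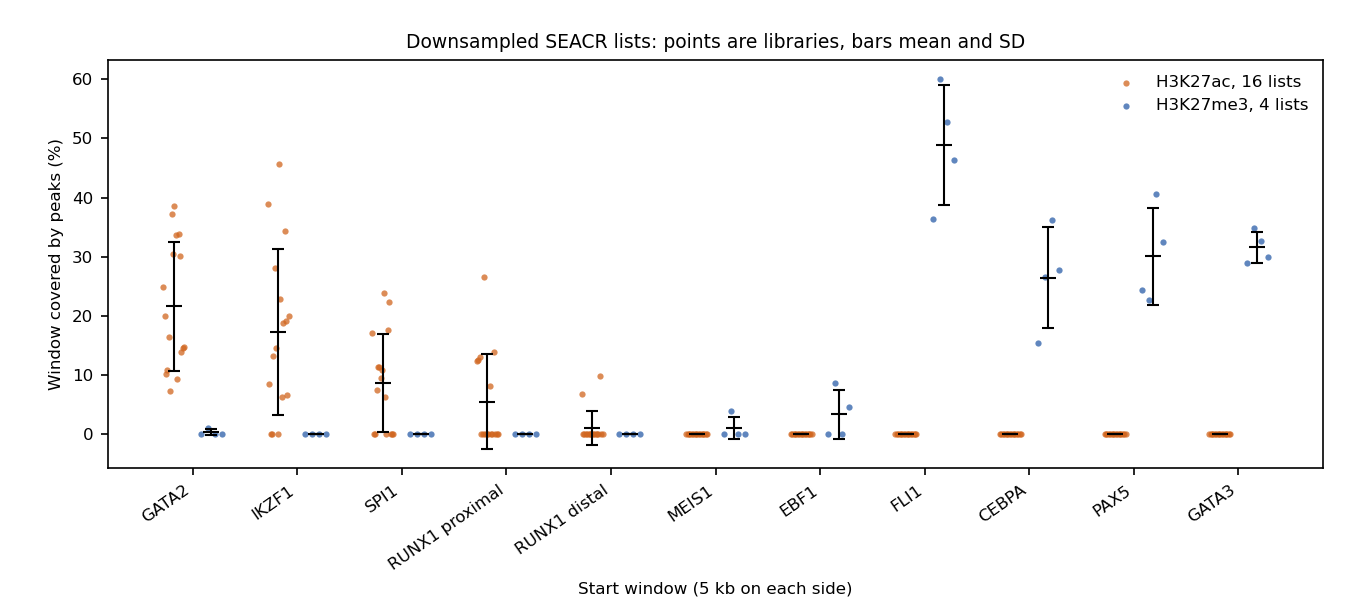
Share of each start window covered by peaks (vertical axis, percent) in the downsampled SEACR lists, with 16 H3K27ac libraries in orange and 4 H3K27me3 libraries in blue; points are libraries and bars the mean and SD. The groups are apart at GATA2, FLI1, CEBPA, PAX5 and GATA3 and overlap at the other 6 starts. The share of all tiles with groups apart was not counted.

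At the other 6 starts the difference did not pass the threshold of 0.05. IKZF1 had 17.3% ± 14.1 of H3K27ac and 0% of H3K27me3 (difference 17.3 points, exact permutation p = 0.0279, adjusted p = 0.0586), with 3 of the 16 H3K27ac lists lacking a peak. EBF1 had 0% of H3K27ac and 3.28% ± 4.13 of H3K27me3 (exact permutation p = 0.0316, adjusted p = 0.0586), with a peak in 2 of 4 lists. SPI1 had 8.57% ± 8.33 of H3K27ac and 0% of H3K27me3 (adjusted p of the same exact permutation test 0.147). Adjusted p was 0.411 at the proximal RUNX1 start, 1 at the distal one and 0.244 at MEIS1.

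The 2 marks were not called on equal terms. The 16 H3K27ac lists held 3761 to 10768 peaks and the 4 H3K27me3 lists 65283 to 77659, and the median difference over all 72945 tested was −2.50 points, toward H3K27me3. Read depth per library is unknown, and the part of list length in the results at the 11 starts was not tested.

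How many of the 11 starts an H3K27ac list reached differed with the list. It was 0 in the Active Motif list at 15 cycles and 5 in the lists of ab4729 at 15 cycles, Diagenode at 1/50 and 15 cycles, and ab177178 with SDS extraction at 11 cycles. Over the 21 untreated lists, the number of starts reached and the number of peaks in the list had a Pearson r of 0.74 and a Spearman rho of 0.77, and r was 0.78 without the 2 lists farthest from the median length. These lists share antibodies and starts, so the values are a description. The 5 starts reached were the same in all 3 longest-reaching lists: GATA2, IKZF1, SPI1 and both RUNX1 starts.

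Antibody dilution could be set side by side for Diagenode C15410196 with SDS extraction and 15 cycles. Without TSA, the library at 1/50 covered 73.0% of the GATA2 window, 58.3% of IKZF1, 32.9% of SPI1, 43.4% at the proximal RUNX1 start and 20.9% at the distal one, against 32.9%, 37.6%, 0%, 0% and 0% at 1/100. With TSA, the library at 1/50 covered 35.7% at GATA2, 7.24% at IKZF1, 9.41% at SPI1 and 7.89% at the proximal RUNX1 start, against 24.6%, 10.4%, 19.9% and 10.4% at 1/100. The higher concentration was thus ahead at all 5 starts without TSA but at GATA2 alone with it. There was 1 library for each of these conditions and no test.

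Column and SDS extraction were compared over the downsampled H3K27ac libraries, with a test that could not call any start after adjustment. In 8 pairs matched for antibody and cycle number, GATA2 coverage was 20.5% ± 10.6 with column and 22.6% ± 11.9 with SDS extraction, IKZF1 17.0% ± 11.0 with column and 17.6% ± 17.4 with SDS, and SPI1 8.12% ± 7.81 with column and 9.02% ± 9.34 with SDS (SD, n = 8 each). Exact sign-flip permutation p-values at the 5 starts with a peak ran from 0.719 to 1, and 0 starts were called, as were 0.0% of the 20192 tiles and windows tested. With 8 pairs the smallest possible p is 0.00781, and 145 of those tested had an unadjusted p under 0.05. That is too few for any adjusted p to fall under 0.05, so the absence of calls decides nothing about extraction. Within cycle numbers the mean difference of column minus SDS at GATA2 was 6.34 points at 11 cycles and −10.6 at 13, and at SPI1 4.56 and −6.35, over 4 antibodies each.

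Between 13 and 11 cycles, IKZF1 showed the widest gap. Its window was covered to 21.7% ± 13.2 at 13 cycles and 12.9% ± 14.3 at 11 cycles (SD, n = 8 each), a difference of 8.79 points that was positive in 6 of 8 pairs (exact sign-flip permutation p = 0.0938, adjusted p = 1). A peak was present in 8 of 8 lists at 13 cycles and 5 of 8 at 11. GATA2 differed by 3.89 points and the proximal RUNX1 start by −5.30. Again 0 starts and 0.0% of those tested were called, with 303 at an unadjusted p under 0.05. These too were too few for any to pass adjustment, so the absence of calls decides nothing about cycle number.

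Over 11, 13 and 15 cycles with SDS extraction, the H3K27me3 coverage given above was highest at 15 cycles at FLI1, CEBPA, PAX5, GATA3, EBF1 and MEIS1. For H3K27ac the antibodies differed. With ab4729, GATA2 coverage was 19.9%, 33.6% and 95.0% at 11, 13 and 15 cycles, and with Diagenode at 1/50 it was 10.9%, 33.9% and 73.0%. With ab177178 it was 24.9%, 38.6% and 23.8%, and with Active Motif 10.2%, 9.19% and 0%. The 15-cycle lists are not described as downsampled, so cycle number and depth cannot be told apart in this series of values.

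TSA was compared in 4 pairs of H3K27ac libraries matched for antibody and dilution, given here in the order ab177178, ab4729, Diagenode at 1/100 and Diagenode at 1/50. With 4 pairs the smallest p of an exact test is 0.125, so none is given. GATA2 coverage was 22.2%, 38.7%, 24.6% and 35.7% with TSA, against 23.8%, 95.0%, 32.9% and 73.0% untreated. It was lower with TSA in 4 of 4 pairs, by little with ab177178 and by most with ab4729. IKZF1 coverage was 0%, 25.9%, 10.4% and 7.24% with TSA, against 10.4%, 61.0%, 37.6% and 58.3% untreated, again lower in 4 of 4 pairs.

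At SPI1, coverage was 7.49%, 23.4%, 19.9% and 9.41% with TSA, against 30.0%, 42.8%, 0% and 32.9% untreated, lower in 3 pairs and higher in 1, while more lists had a peak with TSA, 4 of 4 against 3 of 4. The proximal RUNX1 start had 11.1%, 14.5%, 10.4% and 7.89% with TSA, against 0%, 49.8%, 0% and 43.4% untreated. All 4 TSA lists thus had a peak there and 2 of 4 untreated lists did, while the 2 untreated lists with a peak lay above every TSA list. The distal RUNX1 start had a peak in 0 of 4 lists with TSA, against 3 of 4 untreated. At the 6 starts of FLI1, MEIS1, CEBPA, PAX5, EBF1 and GATA3 no TSA list and no untreated list had an H3K27ac peak. H3K27me3 with TSA was not analysed here.

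**Figure D5:**
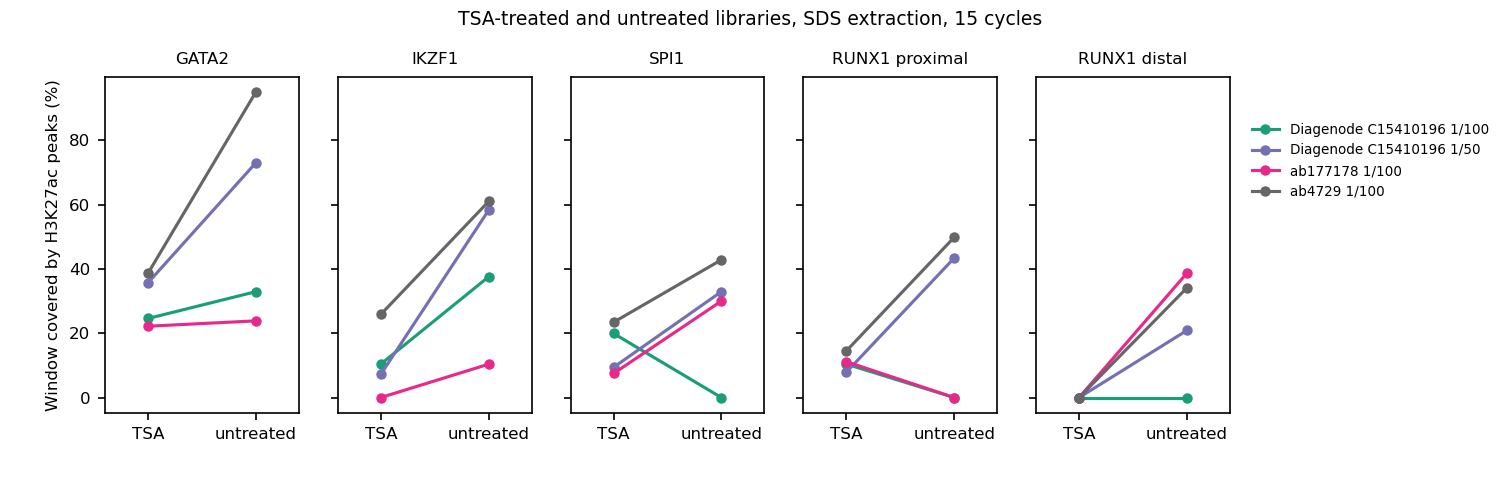
Share of the window covered by H3K27ac peaks (vertical axis, percent) in TSA-treated and untreated libraries at 15 cycles with SDS extraction; each line joins the 2 libraries of 1 antibody and dilution. Lines go up toward the untreated side at GATA2 and IKZF1 in 4 of 4 pairs and run both ways at SPI1 and the proximal RUNX1 start.

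The lists themselves differed with TSA. In the same order of antibodies, they held 7056, 22808, 4462 and 6301 peaks with TSA, against 16623, 13394, 7834 and 11844 untreated. The median peak width was 753, 922, 1145 and 1075 bp with TSA, against 1393, 2736.5, 1339.5 and 2256 bp untreated, narrower in 4 of 4 pairs. The ab4729 list with TSA had more peaks than its untreated pair and yet less coverage at GATA2, IKZF1, SPI1 and both RUNX1 starts. The part of peak width in the coverage of these starts was not tested.

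MACS2 lists existed for the 6 untreated libraries at 15 cycles, and set beside SEACR they gave the same answer on the presence of a peak in 64 of 66 combinations of library and start. Both exceptions were at SPI1 and were peaks of MACS2 alone: 335 bp in the H3K27me3 library and 237 bp in the H3K27ac library of Diagenode at 1/100. MACS2 covered less at GATA2, 65.5% by MACS2 and 95.0% by SEACR with ab4729, and more at EBF1, 41.3% by MACS2 and 29.2% by SEACR in the H3K27me3 library. By the authors' own fold enrichment, the top-ranked H3K27me3 peak of GATA3 stood highest among the members in that library, at 5.81, followed by CEBPA at 5.09 and FLI1 at 5.06, against 3.07 for the small peak at SPI1.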

How the data were processed

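The data were peak lists, 30 called with SEACR, 1 per library, and 6 called with MACS2 for the untreated libraries at 15 cycles, each on a single library and on hg19. The submitters' processing notes name, without role or order, SEACR, MACS2, bedtools 2.25.0 and SAMtools 1.3.1, besides Picard 2.6.0, Bowtie2 2.2.9, Trim Galore 0.6.6 and bcl2fastq. Per the labels, duplicates were removed, and libraries of 11 and 13 cycles were first downsampled to 1 depth, which is not said of those at 15 cycles. SEACR's mode and threshold are not stated there. The deposited SEACR lists give a total and a maximum signal per peak. Those of MACS2 hold, per the authors' columns, −log10 p-values and −log10 q-values as well as fold enrichment, a ratio, and a score. The authors' total signal and −log10 q-value ranked peaks within their own list only, the fold is quoted as theirs, and the score was not used. No counts were given, so depth is unknown and no counting interval was computed.

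For each of the 11 start windows, the presence of a peak (overlap of at least 1 bp), the covered share after merging peaks, and the distance to the nearest peak were computed. Starts were those of the rule on hg19. Strand came from the RefSeq promoter table, and for SPI1 and FLI1, which have no entry there, from general knowledge. With no hg19 annotation in hand, exons, introns, markers of K562 and other genes of the pathways were not used here. The tests were an exact permutation over 20 downsampled lists for the marks and exact sign flips over 8 matched pairs for extraction and cycles, each adjusted over all tiles and windows with a peak. All 10 genes are named. Promoters are shown for members whose class rests on the largest share of lists, leaving out GATA3 for its 6 entries. The genes, lists and comparisons were chosen with earlier results of these data known. Alternatives covered window size, overlap, peak strength, the share of lists, the lists and antibodies included, the permutation scheme and presence in place of coverage. Overlaps and tests were tested on simulated data and against bedtools. Scripts ran in Python 3.11.15 with scipy 1.17.1, pandas 2.3.3 and numpy 2.4.6, and figures were drawn with matplotlib 3.10.9.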

Additional observations from a re-analysis of the deposited data

Results flagged for a closer look

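Among the 7 windows in which the 5 H3K27me3 lists could be examined for a list apart from the others, 2 held one. Such a rule flags about 1 in 20 groups of normally spread values, which lists mostly at 0 are not. At GATA2 the library with column extraction at 11 cycles covered 0.9999% of the window, a peak that entered its edge by 100 bp, and the other 4 lists were at 0%. At MEIS1 the library with SDS extraction at 15 cycles covered 24.688%, against 3.87% with column extraction at 11 cycles and 0% in the other 3. That library also had the longest H3K27me3 list, 106997 peaks, and its depth relative to the downsampled lists is unknown. In 0 of 5 windows with H3K27ac did every antibody move one way with extraction at 11 cycles and the opposite way at 13.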

How the results depend on the processing

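With 1 library per condition, unknown depth and 5 H3K27me3 libraries of 1 antibody, the classes rest on few and uneven lists. No paired analysis was possible by replicate number, because the labels number no replicates and each condition has 1 library. The pairs used for extraction, cycles and TSA are libraries matched on the other factors. Counts over whole comparisons kept within a factor of 1.5 under 69 combinations of result and setting and moved under 9. Membership could change within that limit, as where H3K27ac windows went from 3 to 2 or H3K27me3 windows from 5 to 4. The 69 also include counts of called starts for extraction and cycles, whose tests could call none. The tally is therefore no measure of how firm the classes are. No start that passed the test in the comparison of marks changed sign. Differences that were not called did: for column minus SDS, 8 single values took the other sign under an alternative, among them IKZF1 at 5.32 points without ab177178, against −0.640, and GATA2 without ab4729. For 13 minus 11 cycles 3 did, among them SPI1 at −2.50 points without ab177178, against 0.354. The number of windows with neither mark, 3 as given, was 5 within 2 kb, IKZF1 and EBF1 joining. It was 5 with the stronger 50% of peaks in each list, and 5 when 80% of lists were required. SPI1 and EBF1 joined in each of these. With the lists at 15 cycles alone it was 1, the proximal RUNX1 start. With 10 kb to either side it was 2, MEIS1 then carrying H3K27me3. With an overlap of at least 500 bp it was 4, EBF1 joining. The number of starts with more H3K27ac, 1 as given, was 2 when presence replaced coverage, 2 without Active Motif and 2 without Diagenode, and 0 within 2 kb and 0 with the stronger 50% of peaks. IKZF1 joined GATA2 in the first 3, with adjusted exact permutation p-values of 0.0186, 0.0463 and 0.0466. GATA2 was lost in the other 2, at 0.175 and 0.0514, and GATA3 had 0.0629 within 2 kb. With presence in place of coverage, TSA minus untreated also turned its sign, to 50 points at the proximal RUNX1 start and 25 at SPI1, against −12.3 and −11.4 points of coverage. The cause of these moves was not tested.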
